A study of Homo sapiens with 18 samples.

Results

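SORBS2 was examined as a target of the RNA-binding protein QKI while human stem cells became cardiomyocytes, at day 0, day 4 and day 8 of the protocol. The gene lies on the minus strand of chromosome 4 (186506598 to 186877870, hg19), a span of 371 kb. Every minus-strand line that overlaps this span was taken from the 12 deposited peak lists, and 561 of 889743 lines did so. Of these, 531 came from the lists of the 9 single libraries and 30 from the 3 merged lists. SORBS2 was chosen because its peak numbers were known to be low at day 4, so its counts by day are given as a description, with no test.

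The line was HUES6, derived from a human embryo as a pluripotent stem cell line. Day 0 cells were pluripotent, grown overnight after plating. Day 4 cells were cardiac progenitors, after CHIR and BMP4 followed by C59, and day 8 cells were cardiomyocytes collected once beating was seen. The labels name no mutation and no knockdown in any group. The assay was eCLIP: RNA is crosslinked to its proteins by ultraviolet light, QKI is immunoprecipitated (IP), and the bound fragments are sequenced and scored against a size-matched input. Each day had 3 IP libraries and 3 inputs, and the 9 inputs entered only through the authors' scores. Whether replicates were grown as separate cultures is not stated in the labels, and their spread may be technical. The lists hold peaks and no reads, so read depth is unknown.

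QKI is a STAR-family protein that binds RNA through a KH domain and prefers ACUAA-type sequences. In introns it is known to promote or repress the use of neighbouring exons according to where it binds, and in 3′ untranslated regions it affects RNA stability. SORBS2, also called ArgBP2, is an adaptor protein with a sorbin homology domain and SH3 domains. It links actin and adhesion proteins such as vinculin to signalling proteins such as Abl-family kinases and Cbl. In cardiac muscle it is known at Z-discs and intercalated discs, and its transcripts are spliced into many tissue-specific forms. No exon map or sequence of hg19 was used here, so positions are given as hg19 coordinates and as distances from the 5′ end of the gene, without exon or intron.

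QKI peaks lay on SORBS2 RNA at day 0 and in greater number at day 8, and were nearly missing at day 4. A cluster is any line of a library's list, all of which were above input, and a passing peak is a cluster whose authors' fold over input was 4 or more and whose authors' p was 0.001 or less. The day 0 libraries held 16, 18 and 14 passing SORBS2 peaks, the day 4 libraries 0, 1 and 0, and the day 8 libraries 30, 24 and 39. The highest day 4 library thus lay below the lowest library of both other days, and the day 8 libraries lay above all others without overlap. How many other genes have all day 8 libraries above all others was not counted, so this order is not called particular to SORBS2. The means were 16.0 ± 2.00 at day 0, 0.333 ± 0.577 at day 4 and 31.0 ± 7.55 at day 8 (SD, n = 3 each). Clusters of any fold followed the same order of days, with 46, 78 and 72 at day 0, 0, 1 and 3 at day 4, and 89, 123 and 119 at day 8.

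The libraries differed in length, so the SORBS2 peaks were also counted per 10000 passing peaks of their library. Lists held 12695 to 15508 passing peaks at day 0, 3030 to 7775 at day 4 and 3726 to 10966 at day 8. On this scale SORBS2 took 10.3, 14.2 and 10.7 at day 0, 0, 1.29 and 0 at day 4, and 47.5, 64.4 and 35.6 at day 8. The mean shares were 11.7 ± 2.12, 0.429 ± 0.743 and 49.1 ± 14.5 per 10000 (SD, n = 3 each). The groups did not overlap on this scale either, and how often all 3 days part in this way elsewhere was not counted. Per 10000 clusters of any fold the shares were 4.51, 4.33 and 3.83 at day 0, 0, 0.143 and 0.301 at day 4, and 17.0, 20.1 and 18.9 at day 8. In bulk cells, weaker binding, less SORBS2 RNA per cell and fewer cells that make it cannot be told apart from these lists.

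**Figure D1:**
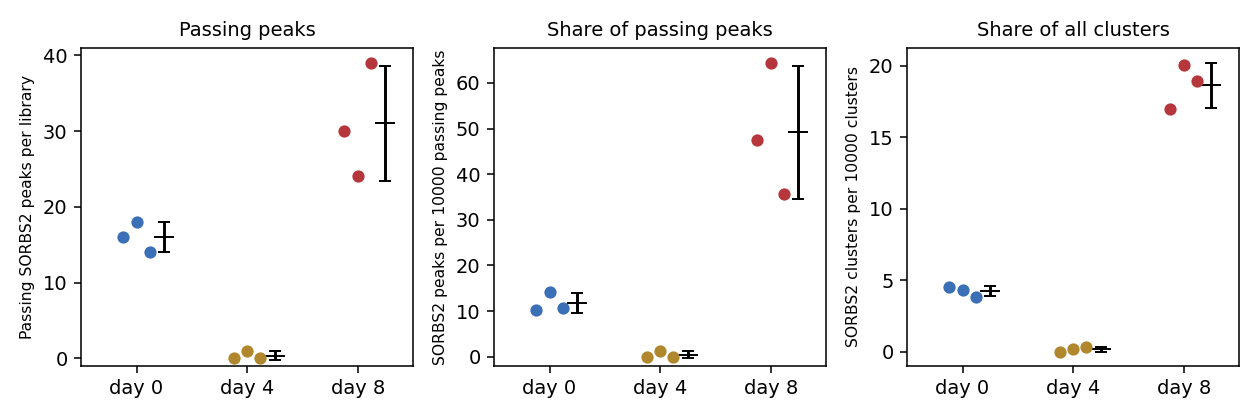
Passing SORBS2 peaks per library (left), SORBS2 peaks per 10000 passing peaks (middle) and SORBS2 clusters per 10000 clusters of any fold (right) at day 0, day 4 and day 8. Points are libraries, and the bar beside them is the mean with its SD (n = 3). On each scale the day 4 libraries lie lowest and the day 8 libraries highest, without overlap. How many other genes show this order was not counted.

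Summed over the libraries of a day, SORBS2 held 1 of 14804 passing peaks at day 4, against 48 of 41272 at day 0. This ratio of day 4 over day 0 was 0.0581, with an exact (Clopper-Pearson) 95% counting interval of 0.00144 to 0.339. Day 8 held 93 of 21012, which is 3.81 times the day 0 share. Day 8 over day 4 gave a ratio of 65.5, with an interval of 11.5 to 2616 that rests on the 1 day 4 peak. These intervals show only how little 1 peak fixes the size of a ratio. They cover counting error alone, treat neighbouring peaks and pooled libraries as independent, and are no test, because SORBS2 was chosen on these counts. The only passing day 4 peak came from replicate 2, the day 4 library with the most passing peaks. Without it day 4 held 0 peaks. Allowing 3 counts for a 0 gave an upper bound of 0.364 on the share pooled over day 4 replicates 1 and 3, relative to the day 0 mean share. This bound has the same limits as the intervals and is no test.

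The share of SORBS2 was set beside that of other bound loci. Peaks of the 3 merged lists within 20 kb on the same strand were joined into 155 loci with at least 10 such peaks, and in 9.03% of these all day 4 libraries lay below all day 0 and all day 8 libraries in their share of passing peaks. The SORBS2 locus (186562496 to 186606115) was among them. Its mean share was 9.79 per 10000 at day 0, 0.429 at day 4 and 42.2 at day 8. How many loci had all day 8 libraries above all others was not counted. A minus-strand locus on chromosome 2 (179506621 to 179558861) also had this day 8 order. It held 0, 0 and 0 passing peaks at day 0, 8, 30 and 14 at day 4, and 58, 46 and 76 at day 8. Loci were ranked by their day 4 mean share over the lower of their day 0 and day 8 mean shares, and among those with peaks at both days SORBS2 had the second lowest ratio, 0.0438. The lowest, 0, belonged to a minus-strand locus on chromosome 13 (114553637 to 114564979). SORBS2 was chosen for its low peak numbers at day 4, so its low place follows from the choice and is no test. Its ratio rests on 1 passing day 4 peak, and all 28 merged peaks of its locus came from day 0 and day 8.

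**Figure D2:**
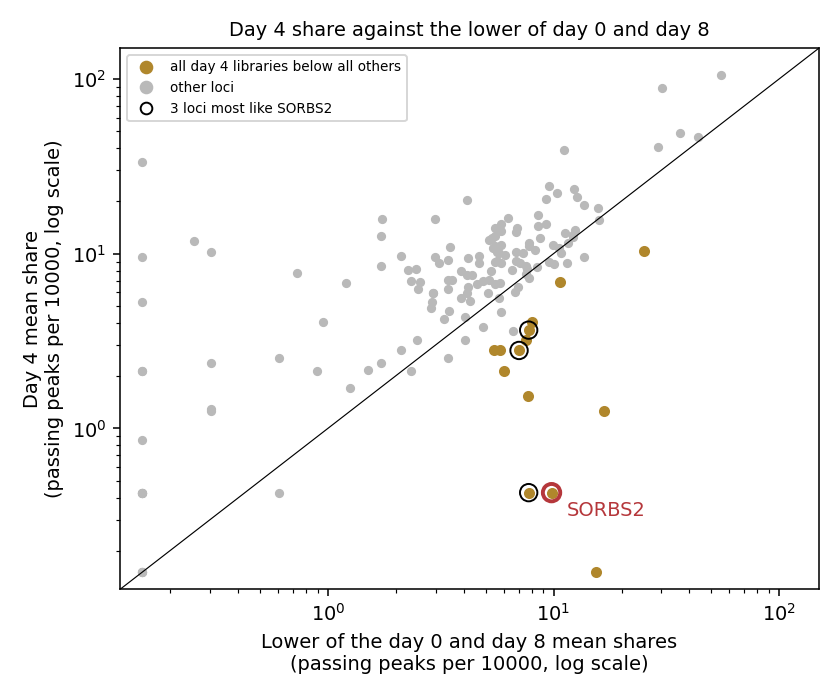
Mean share of passing peaks at day 4 (y axis) against the lower of the day 0 and day 8 mean shares (x axis) for 155 loci, both per 10000 on log scales. Values under 0.15, among them those of the 14 loci with a share of 0, are drawn at 0.15; brown points are loci whose day 4 libraries all lie below all others, and the line marks equal shares. SORBS2 lies far below the line, beside one of the 3 ringed loci most like it.

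The 3 loci most like SORBS2 were those with the highest Pearson correlation of the log2 share over the 9 libraries, among 154 other loci. A plus-strand locus on chromosome 7 (44687341 to 44696367) had r = 0.953. It held 12, 10 and 10 passing peaks at day 0, 1, 4 and 1 at day 4, and 6, 5 and 9 at day 8. A plus-strand locus on chromosome 12 (110784194 to 110787900) had r = 0.942, with 11, 10 and 8 peaks at day 0, 1, 2 and 1 at day 4, and 15, 12 and 13 at day 8. A minus-strand locus on chromosome 10 (97154085 to 97174214) also had r = 0.942. Its counts were 12, 10 and 10 at day 0, 0, 1 and 0 at day 4, and 6, 5 and 7 at day 8. It came closest to SORBS2 in its day 4 level, with a mean share of 0.429 per 10000, the value of the SORBS2 locus. The correlation does not measure the size of a change. In the order above, the day 4 mean share over the lower of day 0 and day 8 was 0.470, 0.397 and 0.0553, against 0.0438 at SORBS2. The mean shares at day 0 and day 8 were 7.76 and 10.4, 7.03 and 22.6, and 7.76 and 9.77 per 10000, against 9.79 and 42.2 at SORBS2. The libraries and their numbers of peaks are common to all loci, and the correlations are given as a description.

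The merged lists hold peaks that passed a 4-fold threshold and a 3-way comparison of a day's libraries (IDR), and they have no replicates. SORBS2 had 11 such reproducible peaks of 7778 at day 0, 0 of 947 at day 4 and 19 of 1576 at day 8. At the day 0 share the shorter day 4 list would have held 1.34 SORBS2 peaks, and at the day 8 share 11.4. An overlap of at least 1 nt with a day 0 peak was found for 14 of the 19 at day 8 (73.7%), while 9 of 11 day 0 peaks (81.8%) had a day 8 peak over them. With a reciprocal overlap of 50%, 7 of the 19 day 8 peaks did so. How often merged peaks of the whole lists coincide between days was not counted, so whether these shares are unusual cannot be said. Touching peaks were counted singly, so some of the overlapping day 8 peaks are parts of the same position. The 19 day 8 peaks lay in 14 separate stretches, since neighbouring peaks touched, and covered 1352 nt, against 970 nt at day 0.

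Passing peaks of all 9 libraries that overlapped or touched were merged into footprints, which gave 43 over SORBS2 and 29356 in the genome. The SORBS2 footprints were 10 to 288 nt wide (median 66) and together covered 0.940% of the gene. A footprint was called bound at a day when at least 2 of its 3 libraries held a passing peak there. Of the 43, 13 were bound on day 0, 0 on day 4 and 21 on day 8. Over the genome 33.4% of footprints were bound on day 0, 9.65% on day 4 and 13.4% on day 8. Such shares stand beside the SORBS2 counts for scale only, since the gene was chosen on the same libraries.

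Binding was uneven along the gene. The 145 kb at the 5′ end, 39.1% of the gene, held no cluster in any library. Beyond it the footprints fell into 9 stretches parted by more than 5 kb. The most footprints, 13, lay in a 4.80-kb stretch (186583617 to 186588419), 289 to 294 kb from the 5′ end. It held 6, 8 and 6 passing peaks in the day 0 libraries, 0, 1 and 0 in the day 4 libraries and 12, 11 and 16 in the day 8 libraries. A 1.33-kb stretch near 279 kb (186598023 to 186599350) held 7 footprints, and a 16.1-kb stretch from 305 to 321 kb (186556732 to 186572782) held 9. The nearest clusters outside the gene on its strand lay 71.6 kb beyond its 3′ end and 587 kb beyond its 5′ end, while inside it the last cluster lay 4.12 kb from the 3′ end. The plus strand of the span held 0 clusters in every library.

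**Figure D3:**
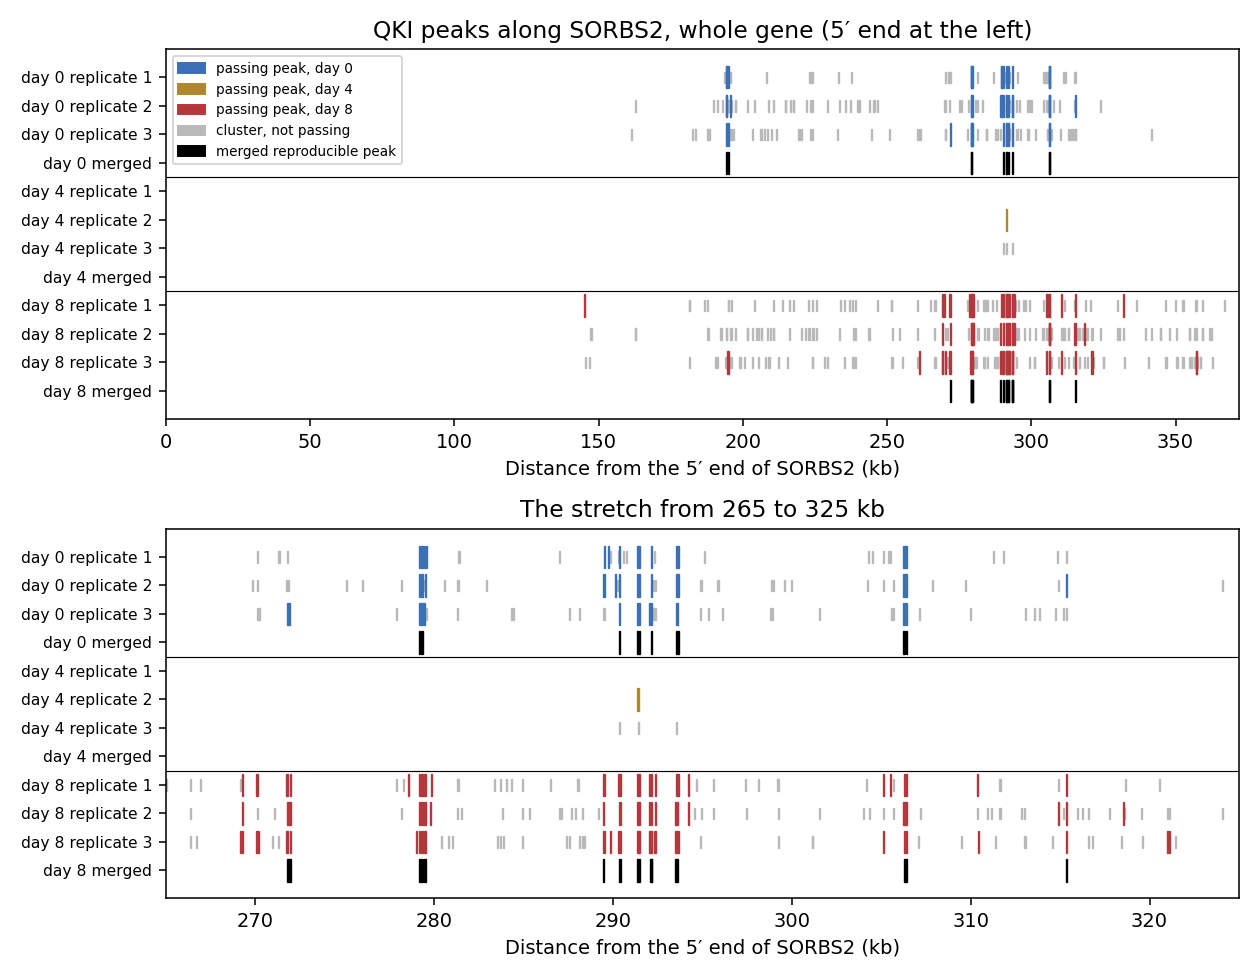
Peaks along SORBS2 by library and merged list, as distance in kb from the 5′ end of the gene, over the whole gene (top) and from 265 to 325 kb (bottom). Tall coloured bars are passing peaks, short grey bars other clusters and black bars merged reproducible peaks, drawn at a minimum width so that narrow peaks stay visible. Day 0 and day 8 peaks stack up at the same positions between 279 and 306 kb, day 0 peaks near 195 kb are mostly missing at day 8, and the day 4 rows are almost empty.

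Day 8 and day 0 shared 10 of the 43 footprints, against 7.61% of all footprints. Of footprints bound at day 8, 10 of 21 in SORBS2 were shared, against 2234 of 3932 over the genome. Of those bound at day 0, 10 of 13 were shared, against 2234 of 9802. Of the 10 in SORBS2, 7 passed in all 6 libraries of both days. The other 3 passed in 3 of 3 day 8 libraries and 2 of 3 day 0 libraries. They lay in 3 of the stretches, with 1 footprint near 306 kb, 5 between 289 and 294 kb and 4 near 279 kb. The folds below are the authors' log2 folds over each library's own input, taken from the highest passing peak in the footprint. They rank peaks within a library and are not compared between days.

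The shared footprint with the highest mean log2 fold over the day 8 libraries, 7.20, was a 183-nt position 294 kb from the 5′ end (186584193 to 186584375). Its log2 folds were 6.84, 7.58 and 7.19 in the day 8 libraries, against 5.13, 5.61 and 4.78 in the day 0 libraries. In the merged day 8 list it was split into 3 touching peaks with log2 folds of 5.48, 6.94 and 6.94. The middle one (186584282 to 186584327) carried a −log10 p at the cap of 400 and ranked 97th of 1576. The merged day 0 list held 1 peak there (186584207 to 186584349, log2 fold 5.36), ranked 2041st of 7778.

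A 189-nt footprint 291 kb from the 5′ end (186586354 to 186586542) was the only one with a passing peak at all 3 days. Its log2 folds were 5.16, 5.99 and 6.55 in the day 0 libraries, 4.31 in day 4 replicate 2, and 7.00, 7.15 and 7.01 in the day 8 libraries, a mean of 7.05. The merged day 8 list placed 3 peaks in it, led by 186586354 to 186586426 (log2 fold 7.14, the highest of SORBS2), and the merged day 0 list placed 2, led by 186586375 to 186586456 (6.51, also the highest of SORBS2). The top SORBS2 peak of a library ranked 114th, 38th and 159th among the passing peaks of the day 8 libraries, and 1438th, 1084th and 620th among those of the day 0 libraries. This placed the single top SORBS2 peak within the top 1.80%, 1.02% and 1.45% of the day 8 lists and the top 9.27%, 8.54% and 4.74% of the day 0 lists. The median SORBS2 passing peak lay above that of the whole list in 1 of 3 libraries at each of these days. Its log2 fold was 3.72, 3.39 and 4.35 in the day 8 libraries, where all passing peaks had medians of 3.91, 4.20 and 4.27. In the day 0 libraries it was 4.64, 3.54 and 3.90, where all passing peaks had medians of 4.32, 4.02 and 4.12.

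A 247-nt footprint near 306 kb (186571407 to 186571653) held the top SORBS2 peak of day 0 replicate 1. Its log2 folds were 5.82, 5.36 and 5.14 at day 8, against 6.41, 5.79 and 5.93 at day 0. It held 2 merged peaks on each of these days and no cluster at day 4. A 127-nt footprint at 290 kb (186587425 to 186587551) had log2 folds of 5.11, 4.42 and 4.86 at day 8, against 4.02, 2.79 and 3.19 at day 0. Its merged day 8 peak (186587425 to 186587547) again carried a −log10 p of 400. Another 2 shared footprints lay between 289 and 294 kb. The position 186585692 to 186585757 had 2.78, 2.86 and 3.37 at day 8, against 3.64, 3.02 and 2.77 at day 0. At 186588333 to 186588419 the log2 folds were 2.47, 2.65 and 4.69 at day 8, and 3.44 and 4.02 in day 0 replicates 1 and 2.

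The 4 shared footprints near 279 kb lay side by side within 186598287 to 186598736. The strongest by its merged peak was 186598466 to 186598601, with log2 folds of 3.48, 3.14 and 5.01 at day 8, against 4.0, 3.0 and 3.80 at day 0. Next to it 186598646 to 186598736 had 2.95, 2.32 and 3.40 at day 8, against 4.87, 3.19 and 2.86 at day 0. The other 2, 186598287 to 186598363 and 186598389 to 186598458, had day 8 log2 folds between 2.10 and 3.19 and passed in 2 of 3 day 0 libraries each. No cluster of any fold was listed there at day 4.

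The shared positions carried 14 of 30, 15 of 24 and 18 of 39 passing SORBS2 peaks in the day 8 libraries, against 12 of 16, 13 of 18 and 10 of 14 in the day 0 libraries. As shares these were 46.7%, 62.5% and 46.2% at day 8 and 75.0%, 72.2% and 71.4% at day 0. The shared positions were defined on these same libraries, and the day 8 libraries held more SORBS2 peaks. The shares are therefore a description, and no difference between days is read from them. In nucleotides under passing peaks within the gene, pairs of day 8 libraries had a Jaccard index (shared over combined nucleotides) of 0.523 on average, pairs of a day 8 and a day 0 library 0.408 (0.370 to 0.528 over 9 pairs) and pairs of day 0 libraries 0.551. The lowest within-day indices were 0.457 at day 8 and 0.446 at day 0, so the ranges overlapped.

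Of the 10 positions shared by day 8 and day 0, 9 passed in 0 of 3 day 4 libraries, and 7 held no day 4 cluster of any fold. The 9 are of 43 SORBS2 footprints, a class that made up 1.19% of all footprints. Over the genome 2234 footprints were bound at both days, of which 15.6% passed in no day 4 library and 4.12% had no day 4 cluster. The 4 day 4 clusters of SORBS2 all lay in the 3 shared footprints at 290, 291 and 294 kb. Replicate 2 had 186586433 to 186586530 with a log2 fold of 4.31 and a −log10 p of 3.05, just past the threshold of 3. Replicate 3 had 186586391 to 186586447 (3.76, −log10 p 2.18), 186584296 to 186584323 (3.44, 1.69) and 186587496 to 186587517 (3.02, 1.21), which met the fold threshold and missed the p threshold. Replicate 1 had none. On the same strand within 1000 kb of either side of the gene, the day 0 libraries listed 40, 57 and 57 clusters, the day 4 libraries 27, 20 and 35 and the day 8 libraries 19, 12 and 15. The whole lists also differed, with 102085 to 187962 clusters at day 0, 63319 to 99552 at day 4 and 52462 to 62897 at day 8. No change of the surroundings between days is read from these raw counts.

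**Figure D4:**
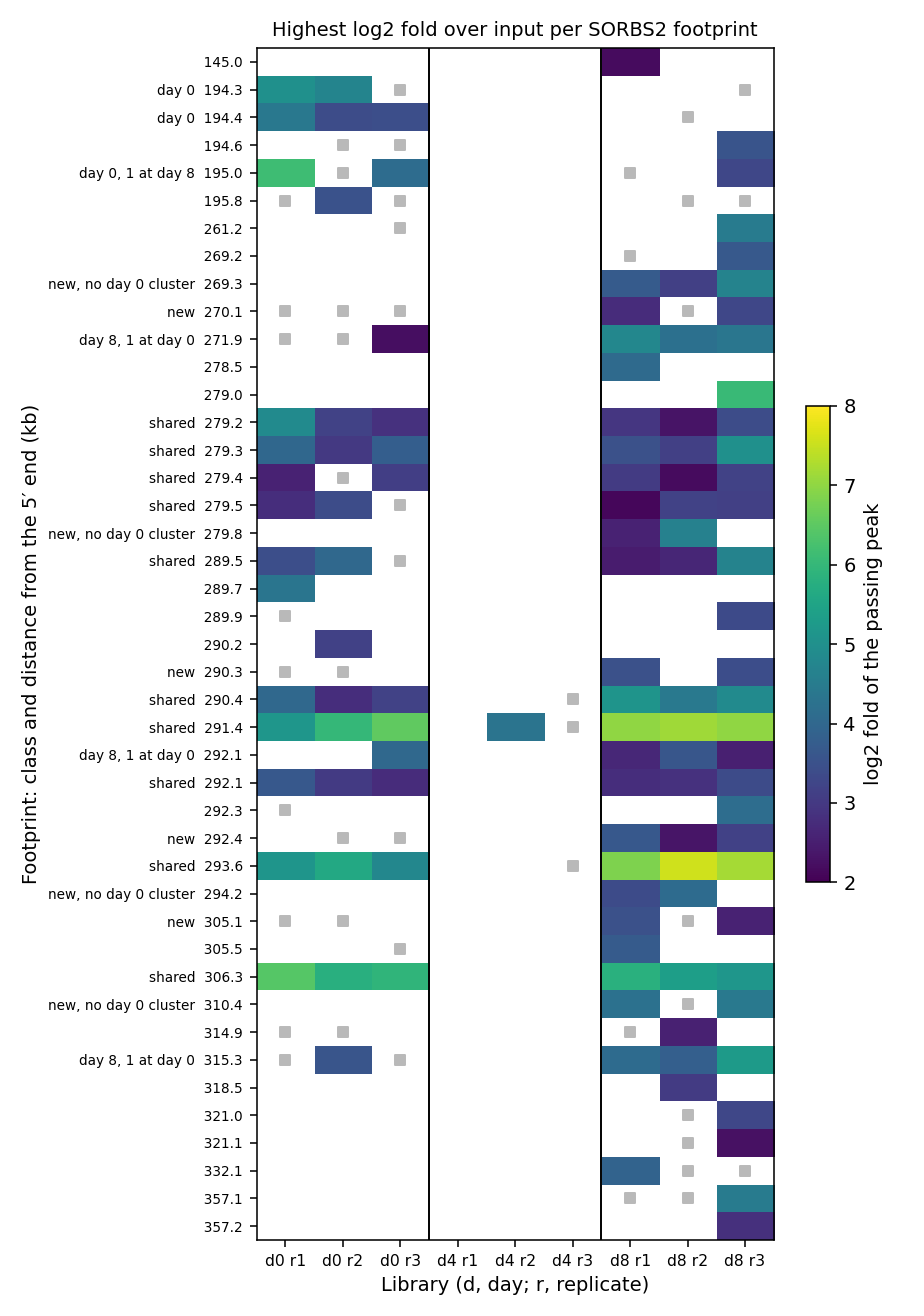
Log2 fold over input of the highest passing peak in each of the 43 SORBS2 footprints (rows, from the 5′ end at the top, labelled by class and by distance from the 5′ end in kb) in the 9 libraries (columns). Grey squares are clusters that did not pass, and white cells have no cluster. The shared footprints fill the day 0 and day 8 columns, and the day 4 columns hold 1 passing peak and 3 grey squares.

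Day 8 also had bound footprints that no day 0 library passed. These new footprints numbered 8 of 43, against 4.63% of all footprints. In 4 of them no day 0 library listed a cluster of any fold, against 2.60% of all footprints. Among footprints bound at day 8 alone, SORBS2 lay close to the genome. There 8 of 21 SORBS2 footprints were new, against 1358 of 3932 over the genome. No day 0 cluster was listed in 4 of the 21, against 764 of the 3932. A 76-nt footprint at 269 kb (186608533 to 186608608) was the only one of these 4 that passed in 3 of 3 day 8 libraries, with log2 folds of 3.72, 3.14 and 4.69. The others passed in 2 libraries each. Position 186567434 to 186567486, at 310 kb, had 4.23 and 4.42 in replicates 1 and 3. Position 186583617 to 186583691, at 294 kb, had 3.37 and 4.10 in replicates 1 and 2, and 186598023 to 186598074, at 280 kb, had 2.57 and 4.64 in the same replicates.

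The other 4 new footprints had day 0 clusters that missed the threshold. Position 186585472 to 186585504, at 292 kb, passed in 3 of 3 day 8 libraries with 3.65, 2.33 and 3.16, and had a cluster in 2 day 0 libraries. Positions 186587567 to 186587607, 186607690 to 186607842 and 186572729 to 186572782 passed in 2 day 8 libraries each, with log2 folds between 2.58 and 3.50. They had clusters in 2, 3 and 2 day 0 libraries. None of the 8 new footprints overlapped a merged day 8 peak, so the authors' reproducible list holds none of them. The number rested on single libraries. It was 2 without day 8 replicate 1 and 4 without day 8 replicate 3, when both remaining libraries had to pass, and 2 when 3 of 3 libraries had to pass.

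A further 3 of the 43 footprints were bound at day 8 and passed in 1 day 0 library, against 1.16% of all footprints. Among footprints bound at day 8 these were 3 of 21, against 340 of 3932 over the genome. In SORBS2, 2 of the 3 held merged day 8 peaks with no merged day 0 peak. The 288-nt footprint at 272 kb (186605853 to 186606140), the widest of the gene, had log2 folds of 4.78, 4.21 and 4.35 at day 8, against 2.22 in day 0 replicate 3 and clusters that did not pass in the other day 0 libraries. Its merged peak (186605861 to 186606115) had a log2 fold of 4.57. The footprint 186562482 to 186562562, at 315 kb, had 4.10, 3.83 and 5.27 at day 8, against 3.58 in day 0 replicate 2. Its merged day 8 peak (186562496 to 186562551) had a log2 fold of 4.45. The third, 186585796 to 186585845, had 2.67, 3.60 and 2.52 at day 8, against 4.03 in day 0 replicate 3, and no merged peak. Thus the 5 merged day 8 peaks without a merged day 0 counterpart all lay on positions with a cluster in 3 of 3 day 0 libraries, of which 1 or 2 passed.

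In the opposite direction, 3 footprints bound at day 0 were not bound at day 8, and all lay in a 1.57-kb stretch 194 to 196 kb from the 5′ end (186682012 to 186683586). The day 0 libraries held 3, 3 and 2 passing peaks in this stretch, the day 4 libraries 0 each and the day 8 libraries 0, 0 and 2. Footprints bound at day 0 that passed in 0 of 3 day 8 libraries numbered 2 of 43 in SORBS2 (4.65%), against 18.7% of all footprints. Among footprints bound at day 0 these were 2 of 13, against 5480 of 9802 over the genome. The footprint 186683401 to 186683451 had log2 folds of 4.41, 3.40 and 3.44 at day 0 and a merged day 0 peak of 3.80, and the footprint 186683525 to 186683586 had 5.02 and 4.70 in day 0 replicates 1 and 2. Each held a cluster that did not pass in 1 day 8 library. The third footprint was bound at day 0 and passed in 1 day 8 library, a class of 2.33% in SORBS2 against 7.11% of all footprints. At this position, 186682761 to 186682892, the log2 fold was 3.27 in day 8 replicate 3. It was 6.13 and 4.12 in day 0 replicates 1 and 3, with a merged day 0 peak of 4.68.

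The remaining 19 of the 43 footprints (44.2%) were bound at no day, against 59.2% of all footprints. Each of the 19 had a passing peak in 1 library. Of these, 16 came from a day 8 library and 3 from a day 0 library. They include the outermost passing peaks of the gene, which were all from day 8. Replicate 3 passed at 357 kb (186520651 to 186520696 and 186520732 to 186520771) and replicate 1 at 145 kb (186732824 to 186732878, log2 fold 2.17). No cluster was listed at these positions at day 0 or day 4.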

How the data were processed

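QKI eCLIP peak lists were analysed for SORBS2, from 9 IP libraries of HUES6 cells and 3 merged lists. Per the submitters' processing notes, reads were processed with tools that include cutadapt, STAR and SAMtools (versions not given) on hg19. Which peak caller was used is not given in the sources used here. Per the file headers, peaks were normalized to input and the merged lists were cut at 4-fold and by IDR over 3 libraries. The deposited values are the authors' log2 fold of IP over input and −log10 p-value per peak, the latter capped at 400. The deposited score column was not used. Libraries were grouped by title, as 3 per day.

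Lines were selected by coordinates and strand, and footprints, loci and counts were computed with Python 3.11.15, pandas 2.3.3, NumPy 2.4.6 and SciPy 1.17.1. Footprint calling was tested on simulated peaks at well-separated sites, so the joining of close neighbours was not tested. No significance test was run. The log2 share used for loci was log2 of (peaks + 0.5) over (passing peaks + 1), times 10000. SORBS2, the thresholds, footprint classes and loci were chosen with earlier results of these data known, and the ratio of day 8 over day 0 was added after the data were seen. Named footprints were those with a merged peak and the 5 with the highest fold among those shared by day 8 and day 0, new at day 8, or bound at day 0 without day 8. The rest of these classes, the third footprint passing in 1 day 0 library and, of the footprints bound at no day, the outermost 3 are also given, chosen after their values were seen. Alternatives were a log2 fold of 3, all clusters, covered nucleotides, equal numbers of peaks, other library minimums, a 50-nt joining gap, a reciprocal overlap of 50% and each replicate left out. Motifs, exons and related genes were not analysed here, because no hg19 sequence or annotation was used. The 9 inputs entered only through the authors' scores.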

Additional observations from a re-analysis of the deposited data

How the results depend on the processing

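The direction of each ratio between days was kept under every alternative run. For day 4 this follows from the choice of SORBS2 on these same libraries and is no test. The mean shares gave 0.0365 for day 4 over day 0 and 0.00872 for day 4 over day 8. When each library was cut to its 3030 strongest peaks, day 4 held 0 SORBS2 peaks, and these ratios were at most 0.250 and at most 0.0811, from the 3 counts that a 0 over the day allows. Leaving out 1 library gave 0.0344 to 0.364 and 0.00766 to 0.0868. The highest values are such bounds, on the pooled share of day 4 without replicate 2. Day 8 over day 0 was 4.19 by mean shares, 3.08 with equal numbers of peaks, and 3.54 to 4.77 without 1 library. At a log2 fold of 3 the day 0 libraries averaged 13.7 passing peaks. With every cluster the means were 65.3 at day 0, 1.33 at day 4 and 110.3 at day 8. Without 1 library the means were 15 to 17, 0 to 0.5 and 27 to 34.5. Passing peaks covered 1235 ± 26.6 nt at day 0, 32.7 ± 56.6 nt at day 4 and 1986 ± 227 nt at day 8 (SD, n = 3 each).

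Footprint numbers depended more on the settings. The 10 shared by day 8 and day 0 became 5 at a log2 fold of 3, 2 with equal numbers of peaks and 7 to 10 without 1 library. Of the 9 without a passing day 4 peak, 4 and 2 were left at these settings, and 6 to 10 without 1 library. The 8 new at day 8 became 2 when 3 of 3 libraries had to pass, 24 when 1 sufficed, 4 with equal numbers and 2 to 10 without 1 library. Those with no day 0 cluster (4) became 1, 14, 0 and 1 to 5, and were 1 without day 8 replicate 1 and 2 without day 8 replicate 2. The 2 of day 0 without day 8 became 1, 5, 0 and 1 to 3, and were 1 without day 0 replicate 1 or 2. Leaving out a library asks both remaining ones to pass, which lowers its day's counts by construction. Merged day 8 peaks overlapping a day 0 peak numbered 14 at 1 nt and 7 at a reciprocal overlap of 50%. No paired analysis was possible because the values by day are given without a test, and the labels do not tie replicate numbers across days. Read depth is unknown, and the short day 4 lists limit what could be listed there.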
